A study of Mus musculus with 14 samples.

Results

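The genes described here are 10 transcription factors that guide megakaryocyte and erythroid development: *Gata1*, *Gfi1b*, *Zfpm1*, *Tal1*, *Nfe2*, *Klf1*, *Fli1*, *Gata2*, *Runx1* and *Lyl1*. They were taken by gene name from a count table of 49315 mouse genes for spleen and a table of 18603 genes for ovary. All 10 were found in the spleen table and 9 in the ovary table, where *Gfi1b* had no row. By the lineage in which they are known to act, 5 are factors shared by both lineages (*Gata1*, *Gfi1b*, *Zfpm1*, *Tal1* and *Nfe2*), 2 are tied to a single lineage (*Klf1* to the erythroid, *Fli1* to the megakaryocytic) and 3 are factors of stem and progenitor cells (*Gata2*, *Runx1* and *Lyl1*).

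Megakaryocytes, the cells that shed platelets, and erythroid cells, the precursors of red blood cells, arise from a common progenitor. GATA1 drives both fates, together with its cofactor FOG1 (the product of *Zfpm1*), with TAL1 in a complex that also holds LMO2 and LDB1, and with the repressor GFI1B. Within the common progenitor KLF1 favours the erythroid fate and FLI1 the megakaryocytic fate, and the spleen of the young mouse is an active site of red blood cell production. GATA2, RUNX1 and LYL1 act earlier, in stem and progenitor cells. GATA2 is also needed by mast cells, GATA1 by eosinophils, and FLI1, GATA2, TAL1, LYL1 and RUNX1 are also made in endothelium or its precursors.

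Poly(A) RNA was sequenced from 14 libraries: spleens of 4 WT and 4 L2-fKO mice and ovaries of 3 WT and 3 L2-fKO mice. L2-fKO mice lack *Zfp36l2* (*Zfp36l2*-/-;CMV-Cre), which encodes a protein that binds AU-rich elements of mRNAs and promotes their decay. Exon 2, flanked by loxP sites, had been removed in all tissues by Cre under the CMV promoter, and WT animals were littermates with both intact copies that carried the same CMV-Cre transgene. The WT spleens came from 2 females and 2 males and the L2-fKO spleens from 1 female and 3 males, and all ovary donors were female. No age is given in the labels. The study describes the spleens as those of pups shortly after birth, in age-matched pairs, and the ovaries as those of age-matched animals. The labels call the spleen samples spleen organoids and the knockout L2-cKO, 2 WT spleens carry the same number, and 1 L2-fKO animal gave both a spleen (replicate 3) and an ovary (replicate 1).

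Spleen libraries held 39138010 to 45167464 counts and ovary libraries 31052510 to 44270070 recovered reads. *Zfp36l2* was at 278 to 405 normalized counts in L2-fKO against 4362 to 7394 in WT spleens, and at 758 to 1011 against 4745 to 4906 in ovaries. Markers of splenic lymphocytes, macrophages and stroma were all present in the spleens, and the oocyte genes *Zp2* and *Zp3* were abundant in the ovaries. In spleen 1016 of 16911 genes tested were called, 6.01%, with a Benjamini-Hochberg adjusted p under 0.05 and an absolute log2 fold change above 1 in edgeR, 490 higher in L2-fKO (2.9%) and 526 lower (3.11%). In L2-fKO spleen 4, 25 erythroid genes took 5.80% of the counts, against 7.95% to 9.90% in the other L2-fKO spleens. WT spleen 3 was low in its group too, at 6.41% against 9.04% to 9.53% in the other WT spleens. Where leaving out L2-fKO spleen 4 moved a factor past the adjusted p limit, the value without it is given too. Values with another spleen left out are set beside it. Leaving out WT spleen 3 instead also moved *Fli1* and *Zfpm1* past that limit (edgeR adjusted p = 0.046 each).

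ZFP36L2 recognises UAUUUAU in the 3′UTRs of mRNAs, so this 7-mer was searched on the transcript strand of the longest annotated 3′UTR of each factor (GENCODE M21, GRCm38). *Runx1* was the only one of the 10 factors that held it, with 3 copies in 4189 bases, whereas 29.5% of 14227 spleen genes with an annotated 3′UTR held at least 1 copy and 3.87% held 3 or more. The 3 *Runx1* sites, shown because *Runx1* was also the only factor below the adjusted p limit in spleen, are on the minus strand, with the 7-mer in capitals. Numbers in the names count bases from the start of the 3′UTR.
Runx1 base 540, chr16:92605098-92605126: aaaucccuagaUAUUUAUguaucuugaug
Runx1 base 2528, chr16:92603110-92603138: auucaagccccUAUUUAUaauuuuaacac
Runx1 base 3359, chr16:92602279-92602307: aaacucaauugUAUUUAUguauguaaaua

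The pentamer AUUUA, which lies within the 7-mer, occurred 14 times in *Runx1*, 4 times in *Fli1*, 3 times in *Gata2* and once in *Gfi1b*, and not in the other 6 factors, while 69.9% of the 14227 genes held it. The 3′UTRs ranged from 60 bases in *Zfpm1* to 4189 in *Runx1*, around a median of 1331 over these genes. A match is a description of letters and not a shown site of binding.

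In WT spleen the erythroid and shared factors were abundant and the progenitor factors were not, with the exception of *Lyl1*. Levels between genes were compared as RPKM (reads per kb of exon, scaled to the library size), since longer transcripts give more reads. *Klf1* was highest at 239 ± 47.8 (SD, n = 4), and its lowest library lay above all libraries of the next gene, *Zfpm1*. *Zfpm1* (140 ± 26.8), *Gata1* (109 ± 20.7), *Tal1* (106 ± 11.7), *Nfe2* (104 ± 23.1), *Lyl1* (84.0 ± 15.0) and *Gfi1b* (69.4 ± 17.4) followed, and each overlapped its neighbour in this order. *Fli1* was lower at 15.7 ± 3.91, *Runx1* lower again at 3.33 ± 0.185 and *Gata2* lowest at 2.52 ± 0.213, with no overlap between *Gfi1b*, *Fli1*, *Runx1* and *Gata2*. The exon length is the union over all annotated transcripts, 12025 bases for *Runx1*, which lowers the value of a gene with many isoforms.

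In L2-fKO spleens *Klf1* was again first (247 ± 76.6), then *Zfpm1* (213 ± 50.9) and *Tal1* (159 ± 53.0), and each of the first 7 genes overlapped its neighbour. At the low end *Gata2* (3.70 ± 1.09) and *Runx1* (2.51 ± 0.140) had traded places, and their ranges overlapped.

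**Figure D1:**
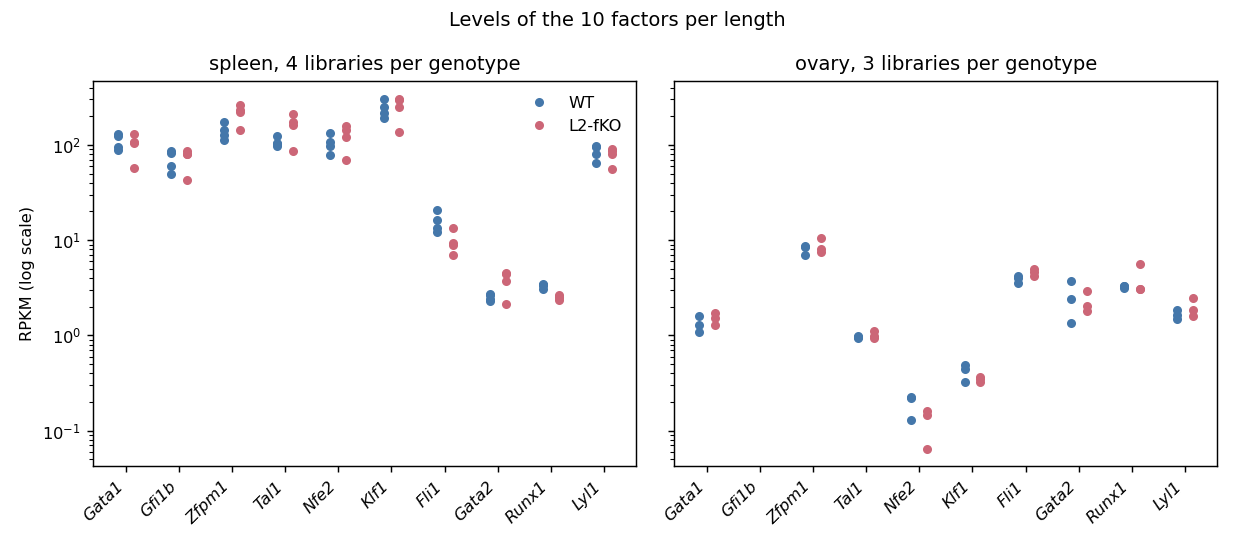
Levels of the 10 factors in each library as RPKM on a log axis, for spleen (left, 4 libraries per genotype) and ovary (right, 3 per genotype), WT in blue and L2-fKO in red. In spleen 7 factors sit between 43.2 and 306 and *Fli1*, *Runx1* and *Gata2* lie below 21, whereas in ovary no factor exceeds 10.4 and *Gfi1b* has no value.

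The first question was whether factors that both lineages use differed in spleens without *Zfp36l2*. None of the 5 was called, and their log2 fold changes ran from -0.12 to 0.61 with a median of 0.24, beside a median of -0.02 over all 16911 genes. *Gata1* and *Gfi1b* were within the spread of the replicates, and *Zfpm1* and *Tal1* were higher in 3 of 4 L2-fKO spleens than in any WT spleen.

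*Gata1* (chrX:7959260-7978071), the master factor of both lineages, measured 9244, 12984, 10066 and 13726 normalized counts in WT spleens 1 to 4 and 11330, 10988, 13823 and 6098 in L2-fKO spleens 1 to 4. The groups overlapped throughout, with L2-fKO spleen 4 below all other libraries. Its log2 fold change was -0.12 ± 0.24 (SE, as for all fold changes here, edgeR adjusted p = 0.77), and its 95% interval, 0.638- to 1.32-fold, bounds the difference that these libraries leave room for.

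*Gfi1b* (chr2:28609450-28621982), a zinc finger repressor that acts with GATA1, gave 3950 (WT 1), 4715, 6811 and 6476 in WT and 6294, 6300.4, 6893 and 3421 in L2-fKO. Both groups spanned about the same range, with a log2 fold change of 0.06 ± 0.24 (edgeR adjusted p = 0.90). *Nfe2* (chr15:103248212-103258403), a partner of the small MAF proteins that platelet release requires, was at 12718, 13930.1, 10040.3 and 17229 in WT and at 18672, 15804, 20251 and 9012 in L2-fKO. L2-fKO spleens 1 and 3 were above all WT spleens and L2-fKO spleen 4 below them, with a log2 fold change of 0.24 ± 0.25 (edgeR adjusted p = 0.56), or 0.44 without number 4 (edgeR adjusted p = 0.12).

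*Zfpm1* (chr8:122282141-122337251), the cofactor that binds GATA1 directly, was at 17154, 19124, 26529 and 21832 in WT and at 35399, 33138, 39338 and 21435 in L2-fKO spleens. Of the L2-fKO libraries only number 4 fell within the WT range. Its log2 fold change was 0.61 ± 0.21 (edgeR adjusted p = 0.079), and with L2-fKO spleen 4 left out it came to 0.77 ± 0.16 with an edgeR adjusted p of 0.012, which is still below the fold limit. The edgeR adjusted p was 0.046 without WT spleen 3 and 0.16 to 0.19 without any other single spleen. The annotated *Zfpm1* overlaps a readthrough gene, *Gm20388*, that had 0 counts in all 8 spleens, and reads shared by the pair would not have been counted, so its level is uncertain.

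*Tal1* (chr4:115056426-115071755), the helix-loop-helix factor of the GATA1 complex, was at 19199, 18223, 23316 and 19772 in WT and at 33264, 30302, 40169 and 16313 in L2-fKO spleens. As for *Zfpm1*, 3 L2-fKO libraries were above WT, but number 4 was here below it. Its log2 fold change was 0.58 ± 0.24 (edgeR adjusted p = 0.14), and with L2-fKO spleen 4 left out it came to 0.78 ± 0.13 (edgeR adjusted p = 0.0056). With any other single spleen left out the edgeR adjusted p was 0.13 to 0.29.

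**Figure D2:**
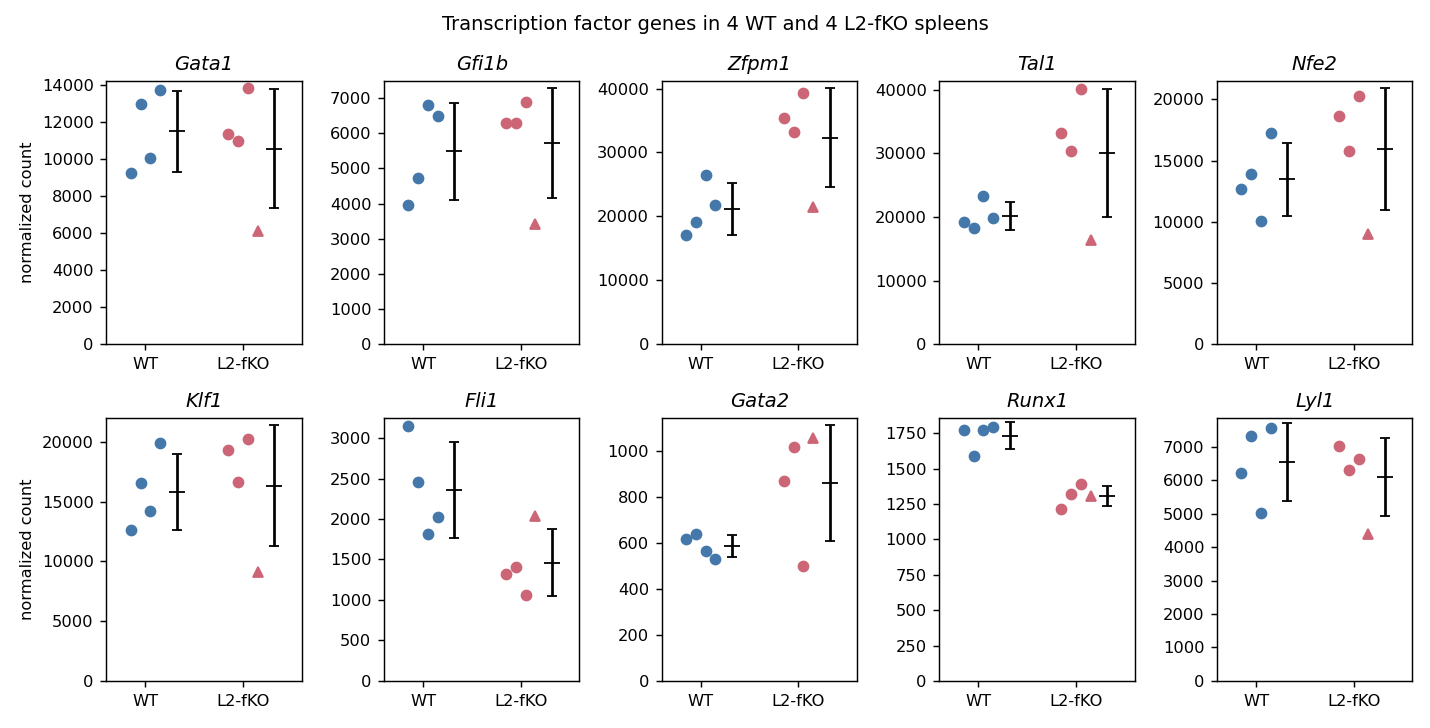
Normalized counts of the 10 factors in each spleen, from 0 upward on each vertical axis, with WT in blue, L2-fKO in red and L2-fKO spleen 4 as a triangle; the bar beside each group is the mean ± SD (n = 4). *Runx1* is the only factor whose groups do not overlap, and the triangle is the lowest point for *Gata1*, *Gfi1b*, *Tal1*, *Nfe2*, *Klf1* and *Lyl1* and the highest L2-fKO point for *Fli1* and *Gata2*.

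Of the factors of a single lineage, the erythroid one did not move beyond its spread and the megakaryocytic one had a lower estimate that missed the limits. *Klf1* (chr8:84901928-84905291), the activator of the adult beta-globin gene, measured 12615, 16599.9, 14219.7 and 19880 in WT and 19355, 16689, 20266 and 9104 in L2-fKO spleens. Its log2 fold change was 0.05 ± 0.24 (edgeR adjusted p = 0.92), with a 95% interval of 0.708- to 1.51-fold. *Fli1* (chr9:32422204-32542861), an ETS factor that switches on platelet glycoprotein genes, measured 3146, 2458, 1815 and 2020.3 in WT and 1325, 1408, 1060.2 and 2037 in L2-fKO spleens.

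For *Fli1*, 3 L2-fKO spleens were below all WT spleens and number 4 was within the WT range. The mean was 61.8% of WT, the log2 fold change -0.69 ± 0.22 and the edgeR adjusted p 0.070. Leaving out L2-fKO spleen 4 gave a log2 fold change of -0.90 ± 0.20 (edgeR adjusted p = 0.015), and DESeq2 on all libraries gave an adjusted p of 0.024. Without WT spleen 3 the edgeR adjusted p was 0.046, and without any other single spleen it was 0.11 to 0.17. L2-fKO spleen 4 also had the highest summed level of 15 endothelial genes, 61403 normalized counts against 42196 to 44603 in the other L2-fKO spleens and 32756 to 42424 in WT. Of the L2-fKO spleens, number 4 was also highest in 13 summed markers of splenic lymphocytes, macrophages and stroma. These stood at 101612 there, at 51398 to 76736 in the other L2-fKO spleens and at 113985 to 156056 in WT. In WT most of this sum, 136258 on average, came from the myeloid genes *S100a9* (51878) and *S100a8* (31775.5). Their means in L2-fKO were 11514 and 7998, and they were the only 2 of the 13 markers called. The lower sum in L2-fKO therefore does not show fewer lymphocytes, macrophages or stroma. The part of any of these cells in the *Fli1* value was not tested.

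Among the progenitor factors *Runx1* was lower, *Gata2* had a higher estimate that missed the limits and *Lyl1* stayed within its spread. *Runx1* (chr16:92601466-92826149), the core-binding factor needed for blood stem cells and for megakaryocyte maturation, was at 1775, 1589, 1771 and 1794 in WT and at 1212, 1320.3, 1388 and 1308 in L2-fKO spleens. The L2-fKO libraries were close together, number 4 included, and all below WT, at a mean of 75.5% of WT. With a log2 fold change of -0.41 ± 0.10 and an edgeR adjusted p of 0.022, *Runx1* passed the adjusted p but not the fold limit.

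That made *Runx1* 1 of 10 factors below the adjusted p limit, where 13.4% of all genes tested were, and 1 of 10 with no overlap between groups, where 20.4% of all genes had none. Neither share sets the 10 factors apart from the genes at large. The *Runx1* adjusted p rose to 0.086, 0.071 and 0.079 without L2-fKO spleens 1 or 2 or WT spleen 4, in each case with a log2 fold change of -0.37 to -0.42.

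*Gata2* (chr6:88193891-88207032) was at 619, 638, 566 and 529.6 in WT and at 869.6, 1020.2, 503 and 1059 in L2-fKO spleens. L2-fKO spleens 1, 2 and 4 were above all WT libraries and number 3 below them, for a log2 fold change of 0.55 ± 0.21 (edgeR adjusted p = 0.12). The summed level of 16 other mast cell and basophil genes had the same order among the L2-fKO spleens at its ends, lowest in number 3 (7768 normalized counts) and highest in number 4 (24435), beside 12489 to 13365 in WT. In WT most of this sum, 12986 on average, came from *Srgn* (6316) and *Kit* (2660). Both had lower means in L2-fKO (4440 and 965), and *Kit* is also listed below among stem and progenitor genes. Leaving out L2-fKO spleen 3 gave *Gata2* a log2 fold change of 0.74 ± 0.13 (edgeR adjusted p = 0.0081). Without any other single spleen the edgeR adjusted p of *Gata2* was 0.16 to 0.27. The endothelial sum was likewise lowest in number 3 and highest in number 4 among the L2-fKO spleens (42196 and 61403), beside 32756 to 42424 in WT. As these were whole spleens, more cells of a type and more RNA per cell cannot be told apart, here and for every gene above. The part of mast cells or of endothelial cells in the *Gata2* value was not tested.

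*Lyl1* (chr8:84701457-84704715), the close relative of *Tal1*, was at 6220.5, 7327, 5032 and 7575 in WT and at 7020.1, 6297, 6634 and 4391 in L2-fKO spleens. Its groups overlapped, at a log2 fold change of -0.10 ± 0.18 (edgeR adjusted p = 0.74).

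Over the 10 factors together the median log2 fold change in spleen was 0.05, with 6 estimates above 0 and 4 below. The 95% intervals of 6 factors stayed within a log2 fold change of -1 to 1, and those of *Fli1*, *Zfpm1*, *Tal1* and *Gata2* did not. The unadjusted edgeR p was under 0.05 for 5 of the 10 (*Zfpm1*, *Tal1*, *Fli1*, *Gata2* and *Runx1*), as it was for 29% of all genes tested.

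**Figure D3:**
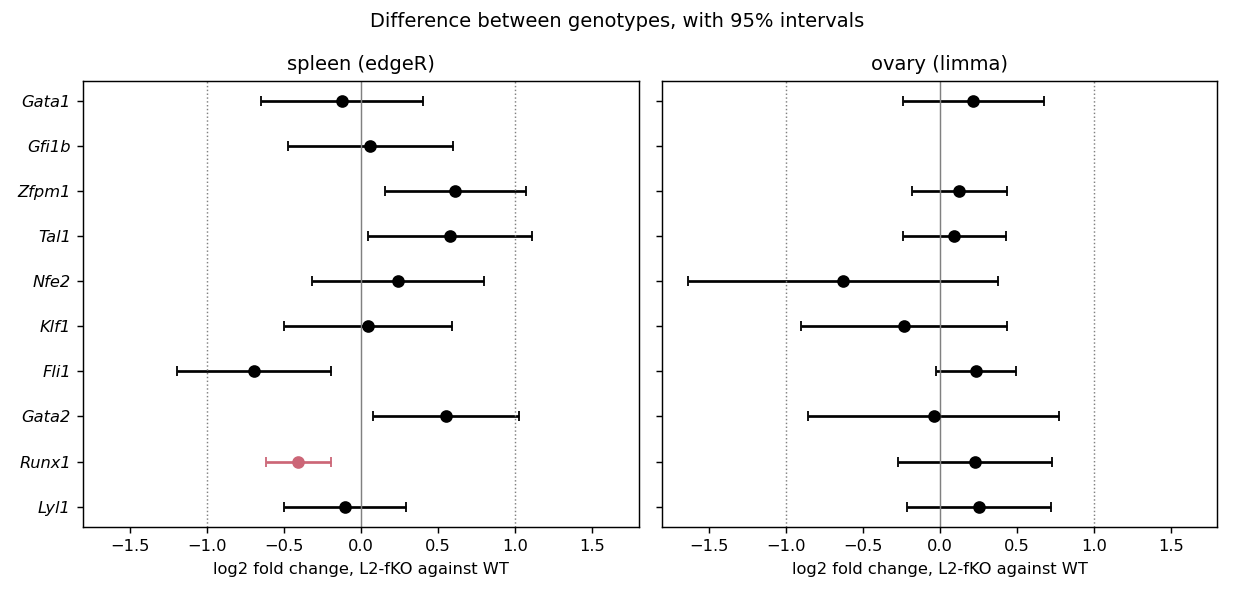
Log2 fold change of each factor, L2-fKO against WT, with its 95% interval, for spleen (edgeR, left) and ovary (limma, right); dotted lines mark a log2 fold change of 1 in either direction and red marks an adjusted p under 0.05. *Runx1* in spleen is the only red point, at -0.41, and no point lies beyond the dotted lines.

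The balance between a pair of factors can be read within a library, where depth and scaling cancel. The log2 ratio of counts was compared for 4 pairs by an exact permutation test (two-sided, 4 against 4, smallest possible p = 0.029), adjusted over the 4 pairs. *Klf1* over *Gata1* was 0.45, 0.35, 0.50 and 0.53 in WT and 0.77, 0.60, 0.55 and 0.58 in L2-fKO spleens, a difference of 0.17 with no overlap (exact permutation p = 0.029, adjusted 0.11). *Lyl1* over *Tal1* was -1.63, -1.31, -2.21 and -1.38 in WT and -2.24, -2.27, -2.60 and -1.89 in L2-fKO spleens, a difference of -0.62 (exact permutation p = 0.057, adjusted 0.11).

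At this size an adjusted p under 0.05 would need at least 3 of the 4 pairs at the smallest possible p, so that the adjusted values of single pairs say little. The other 2 pairs varied more among L2-fKO than among WT spleens. *Fli1* over *Gata1* averaged -2.30 ± 0.52 in WT and -2.84 ± 0.90 in L2-fKO (SD, n = 4, difference -0.54, exact permutation p = 0.29, adjusted 0.29). *Gata2* over *Gata1* averaged -4.27 ± 0.33 in WT and -3.61 ± 0.93 in L2-fKO (difference 0.66, exact permutation p = 0.23, adjusted 0.29). L2-fKO spleen 4 had the highest value of both ratios among the L2-fKO spleens, -1.58 and -2.53, and number 3 the lowest, -3.70 and -4.78. The difference in *Fli1* over *Gata1* was -0.96 without L2-fKO spleen 4, -0.25 without L2-fKO spleen 3 and -0.29 without WT spleen 1. That in *Gata2* over *Gata1* was 0.30 without L2-fKO spleen 4 and 1.05 without L2-fKO spleen 3.

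**Figure D4:**
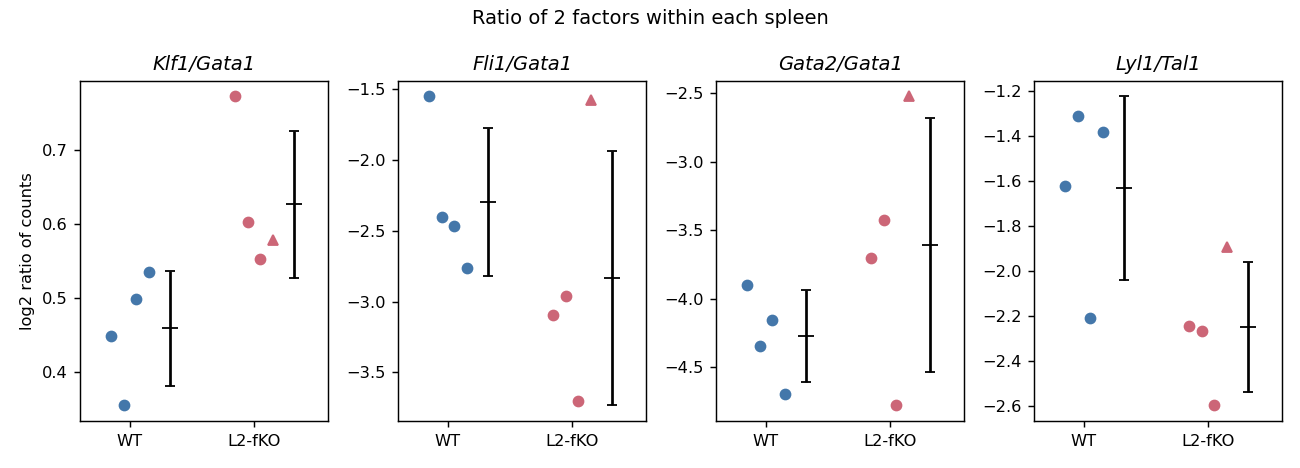
Log2 ratio of the counts of 2 factors in each spleen, WT in blue, L2-fKO in red, L2-fKO spleen 4 as a triangle, with the mean ± SD (n = 4) beside each group; the vertical axes do not start at 0. *Klf1* over *Gata1* has no overlap between groups, and the other 3 ratios overlap.

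Genes of the blood lineages in which these factors act were read beside them. Of 25 platelet and megakaryocyte genes, 20 were called lower in L2-fKO spleen and none higher, with a median log2 fold change of -3.40, where 3.11% of all genes were called lower. The 3 most abundant were the chemokine gene *Ppbp* (15360.4 ± 4374 normalized counts in WT and 230.0 ± 86.9 in L2-fKO, SD, n = 4, log2 fold change -6.06), the granule protein gene *Thbs1* (-3.26) and *Plek* (-1.83), a substrate of protein kinase C in platelets. *Pf4* (-5.64) and *Itga2b* (-3.73), known targets of GATA1 and FLI1 named here after their values were seen, fell as well. The summed platelet genes stood at 17.2% of WT, while the factor with the lowest mean relative to WT, *Fli1*, was at 61.8% and not called.

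Of 25 erythroid genes none was called in either direction, at a median log2 fold change of 0.15. The globin genes *Hbb-bs* (-0.29 ± 0.29), *Hba-a1* (-0.37 ± 0.29) and *Hbb-bt* (0.24 ± 0.27) were within their error, and reads of the near-identical globin copies are uncertain. Only *Fech*, the last enzyme of haem synthesis (0.86, edgeR adjusted p = 0.034), and *Trim10* (0.87, edgeR adjusted p = 0.021) passed the adjusted p. Without L2-fKO spleen 4 both were called higher, at 1.03 each, and *Add2*, *Cpox*, *Epb42*, *Slc4a1* and *Sptb* also passed the adjusted p in the same direction, with log2 fold changes of 0.93, 1.00, 0.59, 0.84 and 0.67.

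Genes of eosinophils, which need GATA1 as well, were called lower in 8 of 9 cases with a median of -2.66. The most abundant were the major basic protein gene *Prg2* (-3.85), *Ear2* (-1.56) and the peroxidase gene *Epx* (-2.66). The *Ear* genes are near-identical copies, so their counts are uncertain. Of 17 mast cell and basophil genes, *Gata2* among them, 7 were called higher, where 2.9% of all genes were, and 1 lower. The 3 most abundant others over all 8 spleens were *Srgn* (-0.51, not called), the mast cell protease gene *Mcpt4* (2.79), which ranks there through its L2-fKO level (3438 normalized counts against 498 in WT), and the stem cell factor receptor gene *Kit* (-1.46). The 7 that rose, *Cpa3*, *Cma1*, *Mcpt4*, *Tpsb2*, *Fcer1a*, *Tpsab1* and *Mrgprb1*, are genes of mast cell proteases and receptors. *Fcer1a*, *Tpsab1* and *Mrgprb1* were near the floor in WT, at means of 7.38, 10.7 and 14.5 normalized counts. With at least 10 counts required in all libraries, 4 mast cell genes were called higher. The basophil protease gene *Mcpt8* did not change beyond its error (-0.08 ± 0.40).

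The proteins that work with the factors were measured too. None of 22 cofactor genes was called, and their median was 0.10. The most abundant were *Lmo2* (-0.38 ± 0.19), which bridges TAL1 and GATA1, the E protein gene *Tcf3* (-0.04 ± 0.11) and the deacetylase gene *Hdac1* (-0.15 ± 0.13). By the adjusted p alone 2 of the 22 were lower and 1 higher, a share near the 13.4% of all genes tested that passed it. The lower ones were *Ldb1*, the dimerising partner of LMO2 (-0.48, edgeR adjusted p = 0.025), and *Lmo4* (-0.74, 0.016). *Bach1*, a repressor that shares small MAF partners with NFE2, was higher (0.56, 0.017). Of the small MAF genes, *Mafg* was at 0.56 ± 0.17 (edgeR adjusted p = 0.058) and *Mafk* at 0.21 ± 0.19 (edgeR adjusted p = 0.49).

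Of 24 tested genes of related factors, with a median of -0.11, 2 were called lower: *Gfi1*, the relative of *Gfi1b* in the myeloid lineage (-1.16, edgeR adjusted p = 0.026), and *Myb*, a factor of blood progenitors (-1.06, edgeR adjusted p = 0.0026). The most abundant were *E2f2* (0.42 ± 0.23), *Ikzf1* (0.11 ± 0.14) and *Klf3* (0.02 ± 0.20). In the list of 15 stem and progenitor genes, which shares *Gfi1*, *Myb* and *Kit* with the lists above, 5 were called lower, the other 2 being *Slamf1* (-2.16) and *Hoxa9* (-1.15), while *Cd34* was at 0.14 ± 0.14. No gene of 15 proliferation genes (median -0.03, among them *Mki67* at 0.29 ± 0.25, *Rrm2* at 0.25 ± 0.26 and *Pcna* at -0.26 ± 0.25) or of 15 endothelial genes (median 0.26, among them *Stab2* at 0.19 ± 0.14, *Eng* at 0.35 ± 0.11 and *Pecam1* at 0.24 ± 0.21) was called.

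**Figure D5:**
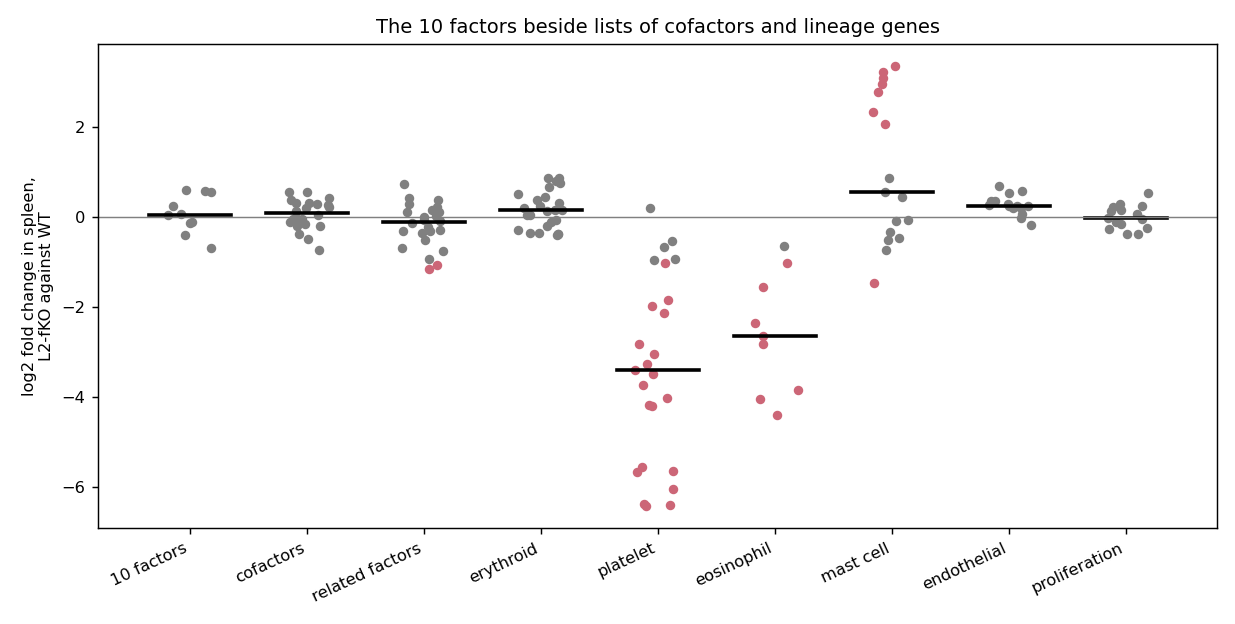
Log2 fold change in spleen, L2-fKO against WT, for the 10 factors and for lists of cofactors, related factors and lineage genes; each point is a gene, red points were called and black lines are medians. The factors, cofactors and erythroid genes lie between -0.74 and 0.87, while platelet and eosinophil genes have medians of -3.40 and -2.66 and mast cell genes reach 3.36.

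Promoters from RefSeq (GRCm38.p6), 250 bases before to 50 after each start, were available for 8 of the 10 factors, as 11 promoters. On either strand, GATA letters (GATAA or GATAG, after A or T) occurred in 3 of these 11 promoters, those of *Gfi1b*, *Klf1* and 1 of 2 of *Tal1*, and in 29.8% of all 32851 promoters. They occurred in 14 of 20 promoters of the erythroid list and in 8 of 19 of the platelet list. ETS letters (CAGGAA or CCGGAA) occurred in 4 of 11 promoters of the factors, 7 of 20 erythroid promoters, 7 of 19 platelet promoters and 41.4% of all promoters. RUNX letters (TGTGGT or TGCGGT) occurred in 2 of 11, 6 of 20, 3 of 19 and 22.4%, and the KLF-type letters CCNCNCCC in 9 of 11, 13 of 20, 8 of 19 and 49.5%.

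The promoters of *Klf1*, of *Hbb-bs* (the most abundant erythroid gene) and of *Ppbp* (the most abundant platelet gene) are shown to set the letters beside genes of either lineage, with GATA or ETS letters in capitals. *Klf1* is on the plus strand with GATA letters, read on the other strand, that begin at -80 from the start. *Hbb-bs* is on the minus strand with GATA letters at -210. *Ppbp* is on the plus strand and holds ETS letters and no GATA letters in this window.
Klf1, chr8:84901732-84902031: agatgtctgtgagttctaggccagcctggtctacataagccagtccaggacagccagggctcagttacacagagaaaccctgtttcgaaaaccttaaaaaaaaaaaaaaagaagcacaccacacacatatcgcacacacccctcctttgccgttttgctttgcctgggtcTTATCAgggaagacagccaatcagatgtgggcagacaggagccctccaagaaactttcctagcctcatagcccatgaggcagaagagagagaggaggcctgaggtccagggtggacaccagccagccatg
Hbb-bs, chr7:103827879-103828178: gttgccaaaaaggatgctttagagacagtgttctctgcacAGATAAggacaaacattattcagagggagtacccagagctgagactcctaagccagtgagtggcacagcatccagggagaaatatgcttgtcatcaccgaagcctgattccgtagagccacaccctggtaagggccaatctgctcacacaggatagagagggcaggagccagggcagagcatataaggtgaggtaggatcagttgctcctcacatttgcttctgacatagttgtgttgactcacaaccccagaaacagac
Ppbp, chr5:90768268-90768567: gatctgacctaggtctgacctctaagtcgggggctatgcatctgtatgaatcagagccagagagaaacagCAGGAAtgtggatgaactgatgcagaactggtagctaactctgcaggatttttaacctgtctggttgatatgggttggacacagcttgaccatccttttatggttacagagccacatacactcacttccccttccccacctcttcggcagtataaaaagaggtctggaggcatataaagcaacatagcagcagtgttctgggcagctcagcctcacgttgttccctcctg

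The genes whose library-to-library pattern was most like each factor were found from the deviations of log2 normalized counts from the genotype mean over the 8 spleens, by Pearson's r against all 16911 genes tested, as a description. Closest to *Gata1* were *Hint1* and *Ndufb9* (r = 0.997 each), closest to *Klf1* were *Rpl12* (0.998) and *Tmem107* (0.997), and closest to *Lyl1* were *Rpl17* (0.992) and *Prkrip1* (0.991). For *Nfe2* they were *Tmcc2* (0.994) and *Pef1* (0.993), for *Gfi1b* *Zfp341* (0.995) and *Redrum* (0.994), for *Zfpm1* *Cnst* (0.996) and *Itpa* (0.995), and for *Tal1* *Zbtb6* (0.992) and *Chchd1* (0.987). For *Fli1* they were *Spns2* (0.999) and *Tle3* (0.996), for *Gata2* *Mex3a* (0.999) and *D830050J10Rik* (0.996), and for *Runx1* *Xrn1* (0.976) and *Smarca5-ps* (0.962). Picked as the highest of 16911 genes over only 8 libraries, these r values are high by selection and do not show co-expression. All genes of a library share its depth, its scaling and its mix of cells.

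In ovary, where blood lineages are a small part of the tissue, none of the 9 factors measured was called, and none had an unadjusted limma p under 0.05, where 16.8% of all genes tested did. There 177 of 18504 genes tested were called, 0.957%, and 1.58% passed the adjusted p, by limma on log2(normalized value + 1), a scale that understates changes of low genes. In WT ovary *Zfpm1* was highest at 8.05 ± 0.902 RPKM (SD, n = 3), above *Fli1* (3.94 ± 0.348), *Runx1* (3.24 ± 0.111), *Gata2* (2.5 ± 1.19), *Lyl1* (1.66 ± 0.180), *Gata1* (1.32 ± 0.252), *Tal1* (0.959 ± 0.0196), *Klf1* (0.419 ± 0.0833) and *Nfe2* (0.192 ± 0.0545). Neighbours overlapped from *Runx1* to *Gata1* and nowhere else in this order.

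The tables of the 2 tissues were scaled separately, so levels across them were set side by side and not tested. *Klf1* was 572-fold and *Nfe2* 543-fold higher in WT spleen than in WT ovary, *Tal1* 111-fold, *Gata1* 82.6-fold, *Lyl1* 50.6-fold, *Zfpm1* 17.4-fold and *Fli1* 3.97-fold. *Gata2* and *Runx1*, at 1.01- and 1.03-fold, had about the same level in both tissues.

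*Fli1* was at 468, 519.7 and 534.9 normalized values in WT ovaries and at 619.7, 640.1 and 535.2 in L2-fKO ovaries. It was the only one of 9 factors without overlap, by a margin of under 1, where 25.2% of all ovary genes had none, and its log2 fold change was 0.23 ± 0.11 (limma adjusted p = 0.35). *Runx1* was at 1416, 1467 and 1446 in WT and at 1429, 2492 and 1361 in L2-fKO, so that 1 L2-fKO ovary, replicate 2, carried the mean above WT (0.23 ± 0.21, limma adjusted p = 0.63). *Gata2* ranged widely in WT, at 490.4, 271.6 and 731 against 426.6, 585.7 and 359 in L2-fKO (-0.04 ± 0.35, limma adjusted p = 0.96).

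The erythroid and shared factors were low. *Gata1* was at 101.0, 143.7 and 113 in WT ovaries and at 123, 155 and 136 in L2-fKO ovaries (0.22 ± 0.20, limma adjusted p = 0.62), *Klf1* at 28.0, 18.4 and 24.8 against 21.5, 18.5 and 19.4 (-0.23 ± 0.29, limma adjusted p = 0.72) and *Nfe2* at 14.6, 25.1 and 23.9 against 18.8, 7.19 and 15.9 (-0.63 ± 0.43, limma adjusted p = 0.51). The counts behind *Nfe2* are so few that its 95% interval ran from 0.323- to 1.30-fold. *Zfpm1* (0.13 ± 0.13), *Tal1* (0.09 ± 0.14) and *Lyl1* (0.25 ± 0.20) overlapped between groups as well. The summed level of 23 erythroid genes was 20271 to 26079 in WT and 25409 to 35677 in L2-fKO ovaries, with *Hbb-bs* at 3310 to 5077 and 6000 to 10738, and the part of blood in these values was not tested.

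No gene of the platelet (20 tested, median 0.07), erythroid (23, -0.07), mast cell (15, -0.46), cofactor (22, 0.07) or related factor (26, 0.02) lists was called in ovary. The most abundant were *Thbs1* (-0.15 ± 0.26), *Clu* (-0.03 ± 0.07) and *Myl9* (-0.14 ± 0.20) of the platelet list, which ovarian cells also express, *Hbb-bs* (0.86 ± 0.23), *Tfrc* (-0.35 ± 0.17) and *Hba-a1* (1.18 ± 0.24) of the erythroid list, and *Tcf3* (0.00 ± 0.06), *Tcf12* (0.16 ± 0.10) and *Hdac2* (-0.09 ± 0.06) of the cofactors. The lowest limma adjusted p of these 9 was that of *Hba-a1*, 0.070.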

How the data were processed

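For spleen, the authors deposited raw counts per gene: reads were trimmed (Trimmomatic 0.36), mapped to GRCm38 (STAR 2.5.2b) and counted by strand over exons (featureCounts, Subread 1.5.2). For ovary, the deposited values are counts divided by a size factor (unit: signal). Their steps gave whole reads for 100% of values within 0.001 of an integer. Fold changes and p-values of the authors' own comparisons, and a second normalized table, were not used.

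Spleen counts were fitted in edgeR 4.0.16 (quasi-likelihood, TMM) over genes with at least 10 counts in 4 of 8 libraries. Normalized counts are counts scaled to the mean effective library size. Ovary values, log2(value + 1), were fitted in limma 3.58.1 (trend) over genes with at least 10 in 3 of 6. A gene was called at an adjusted p under 0.05 and an absolute log2 fold change above 1. Groups followed the labels, and p-values measure the spread between animals. The fits were tested on simulated data with 200 changed genes. For spleen 198 were recovered with 6 false calls (16911 genes), and for ovary 199 with 5 (18547 genes). Recovery of differences as small as those estimated for the factors was not tested.

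Alternatives were DESeq2 1.42.0, other size factors, globins left out of scaling, other filters and pseudocounts, sex as a covariate, males only, each library left out and the replicate number as a block. By rule the text names all 10 factors, the 3 most abundant genes of the lists described (factors left out), *Zfp36l2* and the 2 genes most like each factor; the other genes were named after their values were seen. Members and lists were chosen with earlier results of these data known and give no independent support. Of the listed genes, *Ahsp* and *Siglecf*, did not match a row.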

Additional observations from a re-analysis of the deposited data

Results flagged for a closer look

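*Runx1* in WT spleen 2 was at 1589 normalized counts, apart from 1771 to 1794 in the other 3 WT spleens: the gap to its neighbour was 0.889 of the range, above Dixon's 95% critical value for 4 samples. It was the only one of 28 sets of 4 libraries (10 factors and 4 ratios in each genotype) to pass, and chance alone passes about 1 in 20. The library lies on the side of the L2-fKO spleens, and without it the log2 fold change of *Runx1* was -0.45 (edgeR adjusted p = 0.037).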

How the results depend on the processing

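No factor was called in spleen in the 16 other fits or in ovary in the 12 other fits, and with the adjusted p alone 1 was (*Runx1*). The number of factors with an adjusted p under 0.05 in spleen was 3 with DESeq2 (*Runx1* 0.00074, *Fli1* 0.024 and *Zfpm1* 0.031, DESeq2 adjusted p). With edgeR it was 1 as reported and 0 to 4 with 1 library left out. It was 0 without L2-fKO spleens 1 or 2 or WT spleen 4, and 2 without L2-fKO spleen 3. Without WT spleen 3 it was 3, and without L2-fKO spleen 4 it was 4. With no filter it was 1, but *Fli1* (0.026) in place of *Runx1* (0.091), and with males only *Gata2* (0.024) in place of *Runx1* (0.066). Some estimates changed sign: with males only *Nfe2* was at -0.10, *Gfi1b* at -0.068, *Klf1* at -0.28 and the *Fli1* over *Gata1* difference, -0.54 as reported, at 0.035, and with 1 library left out *Gata1* ranged from -0.28 to 0.067, *Gfi1b* from -0.068 to 0.24, *Lyl1* from -0.21 to 0.025 and *Klf1* from -0.073 to 0.25 in spleen, and *Gata2* from -0.42 to 0.29, *Zfpm1* from -0.0030 to 0.20 and *Runx1* from -0.049 to 0.39 in ovary. The ratios of *Klf1* over *Gata1*, *Gata2* over *Gata1* and *Lyl1* over *Tal1* kept their direction in all 11 alternatives, while their adjusted p values, limited by the design, say nothing of stability. Platelet genes called lower numbered 17 to 22 and eosinophil genes 7 to 8 over all fits. Mast cell genes called higher were 4 to 8 over all fits. They were 4 with at least 10 counts required in all libraries, since low genes leave the fit. With sex as a covariate or the replicate block they were 5, and with 1 library left out 5 to 8. Erythroid genes called were 0 to 2 with 1 library left out (2 without L2-fKO spleen 4).

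Replicate numbers were not taken to pair the samples: the labels do not say which animals form an age-matched pair, and 2 WT spleens share a number. The deviations of same-numbered libraries correlated at -0.13, 0.09, 0.18 and 0.12 in spleen and at 0.38, 0.21 and 0.07 in ovary. Those of different numbers ran from -0.28 to 0.43 in spleen, highest for WT spleen 1 with L2-fKO spleen 4. In ovary they ran from -0.33 to 0.18, below the same-numbered values of numbers 1 and 2, so these correlations do not settle the pairing. With the replicate block, in which L2-fKO spleen 4 has no partner, 4 factors passed the adjusted p in spleen (*Fli1* 0.0036, *Runx1* 0.036, *Tal1* 0.0039 and *Zfpm1* 0.0058, edgeR), 4 erythroid genes were called (*Add2*, *Cpox*, *Fech* and *Trim10*), and *Gata1* (0.10) and *Lyl1* (0.017) changed sign. With 4 spleens and 3 ovaries per genotype, differences of the factors smaller than their intervals could not be resolved, and *Klf1* and *Nfe2* in ovary rest on few reads.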
